A study of Mus musculus with 6 samples.

Results

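The 10 genes described here carry peptides from the cytosol to the cell surface. They are the MHC class I heavy chains *H2-K1* and *H2-D1*, the light chain *B2m*, the transporter subunits *Tap1* and *Tap2*, the loading factor *Tapbp*, the inducible proteasome subunits *Psmb8*, *Psmb9* and *Psmb10*, and the transcriptional activator *Nlrc5*. The genes were taken by symbol from the 55367 symbols listed in each library, and all 10 were among the 14862 genes that reached 1 FPKM in at least 2 libraries. FPKM scales the fragments of a gene to its length and to the library's total, so levels of different genes are compared here per length.

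PolyA RNA was sequenced from kidney cells that bind DBA, a plant lectin used to enrich collecting duct epithelium, with 2 libraries in each of 3 groups, all taken at the time point the labels call Day115. WT mice had the genotype WT and received saline, ADPKD mice were *Pkd1*-/- and received saline, and ADPKD+MMPP mice were *Pkd1*-/- and received MMPP, an ultra-small melanin-like nanoparticle injected into the bloodstream. The extraction notes name both DBA-positive cells and RNA from whole kidney, and the study's methods describe cells isolated with DBA. The knockout was made in male *Pkd1* fl/fl;Cre/Esr1+ mice, in which tamoxifen activates the Cre recombinase, and the methods do not restrict the deletion to a cell type or state whether the WT mice received tamoxifen. The labels do not say whether the libraries of a group came from separate mice, so p-values here measure only the spread between these libraries, which may be technical. The methods give a medium with interferon-γ, an inducer of most of these genes, for cultured primary cells and do not say whether the sequenced cells were cultured.

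*Pkd1*, the targeted gene, stood at 17.7 and 17.2 FPKM in WT, 7.64 and 8.91 FPKM in ADPKD, and 4.34 and 3.99 FPKM in ADPKD+MMPP, over the whole gene and not over the deleted exons alone. Low FPKM values stepped by the worth of 1 read, which gave a depth of 30.6 to 33.1 M reads in the WT and ADPKD libraries and of 11.8 and 10.9 M reads in the ADPKD+MMPP libraries. Between 37.5% and 39.1% of the low values in the WT and ADPKD libraries were odd numbers of reads, against 8.83% and 8.33% in the ADPKD+MMPP libraries. The ADPKD+MMPP libraries therefore stood apart from the others in depth and in the share of odd read numbers, and this difference and the treatment cannot be told apart. *Aqp2*, the water channel of the collecting duct, was high in every library, at 1267 and 1776 FPKM in WT, 1392 and 677 FPKM in ADPKD, and 3555 and 3499 FPKM in ADPKD+MMPP. The epithelial adhesion gene *Epcam* did not follow it, with 110.4 and 110.7 FPKM in WT, 249 and 239 FPKM in ADPKD, but 1.39 and 0.668 FPKM in ADPKD+MMPP. The 5 epithelial markers that include it summed to 1367 and 1737 FPKM in WT, 4498 and 5076 FPKM in ADPKD, and 9021 and 9263 FPKM in ADPKD+MMPP. Deposited FPKM in ADPKD+MMPP shifted with transcript structure, as described below, and neither these sums nor the *Aqp2* levels are corrected for it.

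MHC class I molecules are carried by nearly all nucleated cells and show fragments of intracellular proteins to CD8 T cells. The proteasome cuts the proteins, TAP pumps the peptides into the endoplasmic reticulum, tapasin holds an empty class I molecule next to TAP, and *B2m* completes the molecule that travels to the surface. Interferon-γ exchanges the constitutive catalytic subunits of the proteasome for inducible ones, and NLRC5 acts at the promoters of class I genes through factors bound to the conserved W, X and Y boxes.

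The promoters of *H2-K1*, *H2-D1* and *B2m* are shown because the letters marked below lie in the same order in the heavy chains and differ in the light chain. The sequences come from RefSeq on GRCm38.p6, with 300 bases around each start site, and 8 of the 10 genes had a match. *Tap2* and *Nlrc5* are named only. Capitals mark GGGGATTCC, the enhancer A element bound by NF-κB, then TGACGC from the X box region, then ATTGG, which is CCAAT of the Y box read on the other strand, and in *B2m* also the match to GAAANNGAAA, the repeat recognised by interferon regulatory factors.
H2-K1, chr17:34000359-34000458, minus strand: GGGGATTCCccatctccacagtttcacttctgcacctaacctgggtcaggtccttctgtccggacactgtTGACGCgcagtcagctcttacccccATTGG
H2-D1, chr17:35262923-35263022, plus strand: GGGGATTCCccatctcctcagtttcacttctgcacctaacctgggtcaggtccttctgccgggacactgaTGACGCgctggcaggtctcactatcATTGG
B2m, chr2:122147548-122147638, plus strand: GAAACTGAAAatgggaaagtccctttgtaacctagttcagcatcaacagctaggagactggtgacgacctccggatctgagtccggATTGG

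The stretches of *H2-K1* and *B2m* lie upstream of the genes as annotated in GENCODE vM21, and that of *H2-D1* lies within the gene's annotated span, which begins further upstream. The heavy chain stretches were identical at 89 of 100 bases. The letters searched, on both strands, were settled with these windows in view, and a match is a description of the sequence only. The search took exact letters, so variants of an element were missed, and no match does not mean that a promoter lacks the element. GGGGATTCC was found in 0.25% of the 32851 RefSeq promoter windows and, among the 8 genes, in *H2-K1* and *H2-D1*. TGACGC was found in 7.40% of windows and in the same pair of genes. GAAANNGAAA was found in 3.44% of windows and, among the 8 genes, in *B2m*, and TTCNNNGAA, the core of a STAT site, in 8.30% of windows and in *Psmb8*. CCAAT was found in 37.4% of windows and in *H2-K1*, *H2-D1*, *B2m*, *Tap1*, *Tapbp* and *Psmb9*. TGACGTCA, the palindromic cAMP response element, was found in 1.79% of windows and in none of the 8 genes. The windows of *Tap1* and *Psmb9*, which are transcribed away from each other, shared 275 bases.

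In GENCODE vM21 on GRCm38, 7 of the 10 genes lie on chromosome 17 in the mouse MHC. They are *Tapbp* (33915899 to 33929292), *H2-K1* (33996017 to 34000347), *Psmb9* (34181987 to 34187764), *Tap1* (34187553 to 34197225), *Psmb8* (34197721 to 34201454), *Tap2* (34203527 to 34216321) and *H2-D1* (35262730 to 35267499). *Nlrc5* (94434356 to 94527272) and *Psmb10* (105935735 to 105938444) lie on chromosome 8, and *B2m* (122147686 to 122153083) lies on chromosome 2. Some of these genes share exon bases with neighbours, and whether reads were counted by strand is not stated. *Tapbp* shared 29.0% of its exon bases with *Gm19412* and *Zbtb22*, *Tap2* shared 18.5% with *Gm15821* and *Gm20496*, and *Psmb8* shared 14.7% with *Gm20496*, so their levels are less certain than the others. *Tap1* and *Psmb9* overlap at their starts, with 3.87% and 5.79% of their exon bases. The heavy chains have close relatives, and 9.63% of the 50-base words of *H2-K1* and 12.8% of those of *H2-D1* also occurred in other genes.

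The light chain and the heavy chains made the most RNA per length in the WT libraries. *B2m*, the invariant subunit of all class I molecules, stood at 1390.5 and 1171 FPKM in WT, 1157 and 665 FPKM in ADPKD, and 2414 and 2508 FPKM in ADPKD+MMPP. *H2-D1* stood at 787 and 679 FPKM in WT, 779.8 and 531 FPKM in ADPKD, and 369.7 and 349.9 FPKM in ADPKD+MMPP. *H2-K1* stood at 578 and 493 FPKM in WT, 683 and 431 FPKM in ADPKD, and 215 and 228 FPKM in ADPKD+MMPP. Both heavy chains had overlapping WT and ADPKD libraries and lay lower in each ADPKD+MMPP library, whereas *B2m* lay higher there than in any other library. The ratio of *B2m* to the sum of *H2-K1* and *H2-D1* was 1.02 and 0.999 in WT, 0.791 and 0.691 in ADPKD, and 4.13 and 4.34 in ADPKD+MMPP. These ratios are of deposited FPKM, and neither *B2m* nor *H2-K1* was called in ADPKD+MMPP against ADPKD once libraries were centred by transcript structure.

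*Tap1*, *Tap2* and *Tapbp*, of the peptide loading complex, had their lowest values in the ADPKD+MMPP libraries. *Tap1* stood at 18.5 and 16.8 FPKM in WT, 16.5 and 8.54 FPKM in ADPKD, and 0.588 and 0.736 FPKM in ADPKD+MMPP. *Tap2* stood at 24.4 and 21.9 FPKM in WT, 19.5 and 12.0 FPKM in ADPKD, and 0.269 and 0.364 FPKM in ADPKD+MMPP. *Tapbp*, which encodes tapasin, stood at 50.1 and 53.4 FPKM in WT, 87.6 and 55.4 FPKM in ADPKD, and 8.26 and 7.23 FPKM in ADPKD+MMPP. Each of the 3 genes had its ADPKD+MMPP libraries below all other libraries, and ADPKD lay below WT for *Tap1* and *Tap2* and above WT for *Tapbp*. Groups of 2 libraries can lie apart with no difference between them. The share of all tested genes that lay apart was not computed, for these or the other genes. Of all tested genes, 43% were called lower in ADPKD+MMPP against ADPKD. The lowest values rested on few reads, with 12 and 15 reads of *Tap2* and 38 and 44 reads of *Tap1*, in libraries where most read numbers were even, so these reads may not be independent counts.

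The inducible proteasome subunits and *Nlrc5* did not share a pattern. *Psmb8*, which replaces *Psmb5*, stood at 8.36 and 7.81 FPKM in WT, 10.3 and 6.47 FPKM in ADPKD, and 0.877 and 1.14 FPKM in ADPKD+MMPP. *Psmb9*, which replaces *Psmb6*, stood at 4.42 and 4.24 FPKM in WT, 3.17 and 1.06 FPKM in ADPKD, and 4.63 and 5.31 FPKM in ADPKD+MMPP. *Psmb10*, which replaces *Psmb7*, stood at 18.5 and 18.3 FPKM in WT, 21.1 and 13.3 FPKM in ADPKD, and 20.4 and 19.2 FPKM in ADPKD+MMPP. *Psmb8* was low in the ADPKD+MMPP libraries, *Psmb9* was low in the ADPKD libraries, and the ADPKD libraries of *Psmb10* spanned the values of both other groups. *Nlrc5*, the activator of class I promoters, stood at 3.95 and 3.03 FPKM in WT, 2.68 and 2.08 FPKM in ADPKD, and 0.120 and 0.173 FPKM in ADPKD+MMPP. The ADPKD+MMPP values of *Nlrc5* rested on 12 and 16 reads, and those of *Psmb8* on 35 and 42 reads.

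**Figure D1:**
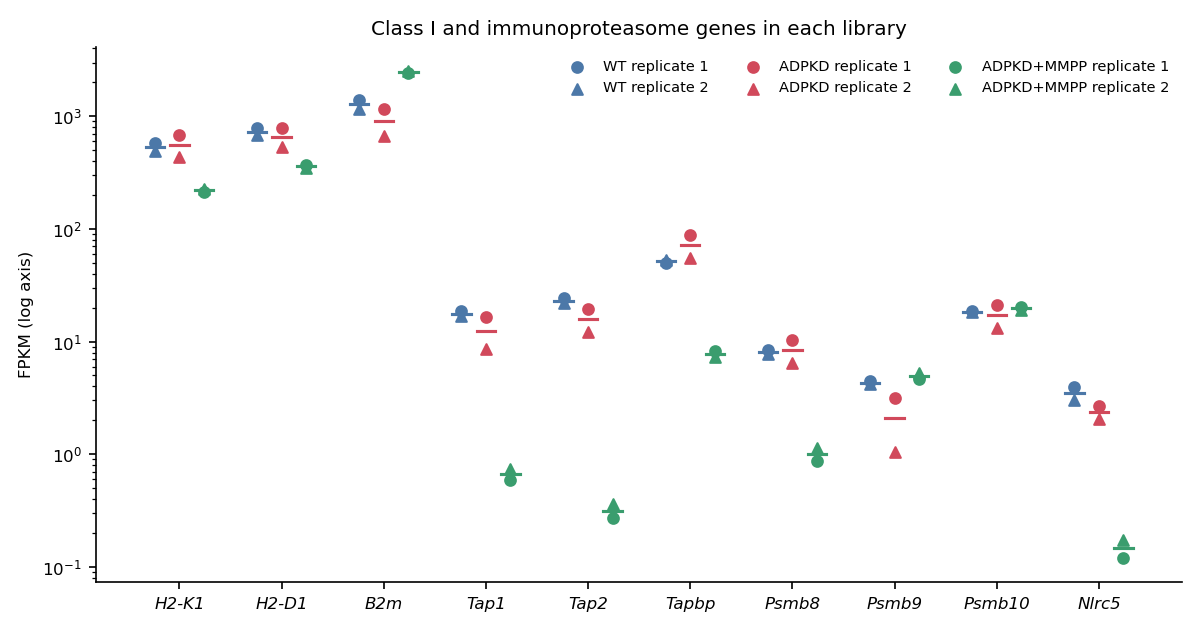
FPKM (log axis) of the 10 genes in each of the 6 libraries, 1 point per library, by group. *Tap1*, *Tap2* and *Nlrc5* lie under 1 FPKM in both ADPKD+MMPP libraries, while *B2m* lies at 2414 and 2508 FPKM there.

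The order of the genes by level was *B2m*, *H2-D1*, *H2-K1*, *Tapbp*, *Tap2*, *Psmb10*, *Tap1*, *Psmb8*, *Psmb9* and *Nlrc5* in WT, and the only neighbours whose libraries overlapped were *Psmb10* and *Tap1*. In ADPKD the libraries of *B2m*, *H2-D1* and *H2-K1* overlapped with their neighbours, as did those of *Psmb10*, *Tap2*, *Tap1* and *Psmb8* and those of *Nlrc5* and *Psmb9*. In ADPKD+MMPP the order was *B2m*, *H2-D1*, *H2-K1*, *Psmb10*, *Tapbp*, *Psmb9*, *Psmb8*, *Tap1*, *Tap2* and *Nlrc5*, with no overlap between neighbours. *Psmb10*, *Psmb9*, *Psmb8* and *Tap1* thus each moved above 1 or more genes that exceeded them in WT.

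The first comparison asked whether loss of *Pkd1* changed the pathway. On the log2(FPKM + 1) scale, with limma, 1 of the 10 genes passed a fold change of 1.5 and an unadjusted P under 0.05 in ADPKD against WT, and it was lower. Over all tested genes 26.7% passed, with 14.2% higher and 12.5% lower, so the share among the 10 genes was not above the background. The median log2 change of the 10 genes was -0.30, against 0.03 over all tested genes. No member passed an adjusted p of 0.05, and 2 of 10 had an unadjusted P under 0.05, *Psmb9* and *Nlrc5*.

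*Psmb9* fell by 0.86 on the log2 scale (SE 0.33, unadjusted P = 0.0401, adjusted p = 0.105), from a mean of 4.33 ± 0.13 FPKM (SD, n = 2) to 2.11 ± 1.5 FPKM. This call was lost when any of 5 libraries was left out and was kept without ADPKD replicate 1, and the change was -0.35 without ADPKD replicate 2. *Nlrc5* differed by -0.41 (SE 0.16, adjusted p = 0.114), under the fold threshold, with both ADPKD libraries below both WT libraries. *B2m* differed by -0.54 (SE 0.27, adjusted p = 0.193), *Tap1* by -0.53 (SE 0.29, adjusted p = 0.221) and *Tap2* by -0.56 (SE 0.23, adjusted p = 0.126), and their ADPKD libraries also lay below the WT libraries. *Tapbp* differed in the other direction by 0.42 (SE 0.23, adjusted p = 0.222). The remaining 4 genes had overlapping libraries, with log2 differences of 0.02 for *H2-K1*, -0.18 for *H2-D1*, 0.02 for *Psmb8* and -0.13 for *Psmb10*.

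The ADPKD libraries differed from each other for the whole pathway. All 10 genes were higher in replicate 1 than in replicate 2, by 1.29 to 3.0 times in FPKM, with a median log2 gap of 0.65. Over all tested genes the median gap was 0.03, and 52.9% of them were higher in replicate 1. The WT replicates differed by ratios of 0.937 to 1.30 and the ADPKD+MMPP replicates by ratios of 0.693 to 1.14. Sums of related genes were also higher in ADPKD replicate 1 than in replicate 2, at 509 and 180 FPKM for 12 interferon-stimulated genes and at 1232 and 378 FPKM for 7 genes of MHC class II presentation. Higher sums in replicate 1 were also found for thick limb and distal tubule (600 and 184 FPKM) and podocyte markers (199 and 86.8 FPKM). Proximal tubule (351 and 202 FPKM), collecting duct (4355 and 3308 FPKM) and intercalated cell markers (34.9 and 18.8 FPKM) also summed higher there. Macrophage and dendritic markers summed higher in replicate 2 (531 and 640 FPKM), led by *Lyz2* (188 and 224 FPKM). *Ptprc*, *Adgre1* and *Itgax* of that list were higher in replicate 1 and its other genes in replicate 2. Epithelial (4498 and 5076 FPKM) and fibroblast markers (153 and 172 FPKM) also summed higher in replicate 2. Their part in the gap was not tested. Without ADPKD replicate 1, the log2 difference of ADPKD from WT was -1.37 for *Psmb9*, -0.97 for *Tap1* and -0.94 for *B2m*. It was -0.89 for *Tap2* and 0.097 for *Tapbp*. Without ADPKD replicate 2, the values were -0.35, -0.093, -0.14, -0.23 and 0.75 in the same order. Each of these fits held 1 ADPKD library, whose spread was assumed to be like that of the other groups.

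Markers of other cell types moved between WT and ADPKD, and their part in the class I values was not tested. As background, 14.2% of all tested genes were called higher and 12.5% lower in this comparison. All 7 endothelial markers were called lower in ADPKD, with sums of 775 and 645 FPKM in WT and 305 and 290 FPKM in ADPKD. All 4 podocyte markers were called lower, with sums of 872 and 1187 FPKM in WT and 199 and 86.8 FPKM in ADPKD. All 10 macrophage and dendritic markers were called higher, with sums of 69.9 and 69.1 FPKM in WT and 531 and 640 FPKM in ADPKD. All 5 intercalated cell markers were called lower, with sums of 181 and 202 FPKM in WT and 34.9 and 18.8 FPKM in ADPKD. Of the thick limb and distal tubule markers 3 of 5 were called lower, of the fibroblast markers 5 of 7 were called higher and 1 lower, and all 5 epithelial markers were called higher. The pan-leukocyte gene *Ptprc* stood at 0.93 and 0.601 FPKM in WT and 3.26 and 2.23 FPKM in ADPKD, and the T cell gene *Cd3e* at 0.0641 and 0 FPKM in WT and 0.0519 and 0.0612 FPKM in ADPKD. In bulk RNA, fewer cells of a type and less RNA per cell cannot be told apart.

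The second comparison asked whether MMPP changed the pathway in ADPKD mice. Of the 10 genes, 7 were called lower and 2 higher when ADPKD+MMPP was set against ADPKD, and *Psmb10* was not called. Over all tested genes 70.9% were called, with 27.9% higher and 43% lower, so most tested genes were called in this comparison. In numbers, 4143 were higher and 6397 lower, and with quantile normalization 5363 were higher and 4577 lower. The median log2 change was -1.42 for the 10 genes and -0.36 for all tested genes. All 9 called genes had an adjusted p under 0.05 in limma.

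*Tap1*, *Tap2*, *Tapbp*, *Psmb8* and *Nlrc5* fell in ADPKD+MMPP against ADPKD on deposited FPKM. *Nlrc5* turned to 0.19 after centring by transcript share, where the 1 added to its low values left no room for a lower call. *Tap2* fell by 3.64 on the log2 scale (SE 0.23, adjusted p = 6.53e-05), which was 49.9-fold in FPKM. *Tapbp* fell by 3.02 (SE 0.23, adjusted p = 0.000115) and *Tap1* fell by 2.96 (SE 0.29, adjusted p = 0.000271), which were 9.23-fold and 18.9-fold in FPKM. The log2 values understate changes of genes near 1 FPKM because 1 was added to each value. *Psmb8* fell by 2.20 (SE 0.22, adjusted p = 0.000295) and *Nlrc5* fell by 1.55 (SE 0.16, adjusted p = 0.000343), or 8.34-fold and 16.3-fold in FPKM.

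On deposited FPKM the heavy chains fell, and the light chain and *Psmb9* rose. *H2-K1* fell by 1.29 (SE 0.24, adjusted p = 0.00340), which turned to 0.13 after centring, and *H2-D1* fell by 0.84 (SE 0.21, adjusted p = 0.0117). *B2m* rose by 1.49 (SE 0.27, adjusted p = 0.00338), from 911 ± 348 FPKM to 2461 ± 66.1 FPKM (SD, n = 2 each). *Psmb9* rose by 1.02 (SE 0.33, adjusted p = 0.0294), which was 2.35-fold in FPKM, to the level of the WT libraries. *Psmb10* differed by 0.23 (SE 0.22, adjusted p = 0.371). The call of *H2-D1* was lost without ADPKD replicate 1, with a change of -0.56, and that of *Psmb9* was lost without ADPKD replicate 2, with a change of 0.51, and without either ADPKD+MMPP library. *H2-D1* was also not called with median-of-ratios scaling (-0.53), nor *Psmb9* with a common FPKM sum (0.79).

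Changes in the ADPKD+MMPP libraries followed the structure of the annotation across all genes. For each of 12375 tested protein-coding genes, the percentage of exon bases covered by exactly 1 transcript of the annotation was computed. Genes with a share up to 9.02% had a median log2 change of -1.70 in ADPKD+MMPP against ADPKD, and the medians increased with the share to 1.09 among the 1857 genes above 88.6%. The medians of ADPKD against WT stayed between -0.03 and 0.07 in the same bins. The share was 6.64% for *Nlrc5*, 18.1% for *H2-K1*, 23.5% for *Tapbp*, 26.8% for *Tap1*, 27.1% for *Psmb10*, 30.2% for *Tap2*, 56.1% for *Psmb8*, 58.4% for *Psmb9*, 75.6% for *H2-D1* and 100% for *B2m*.

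**Figure D2:**
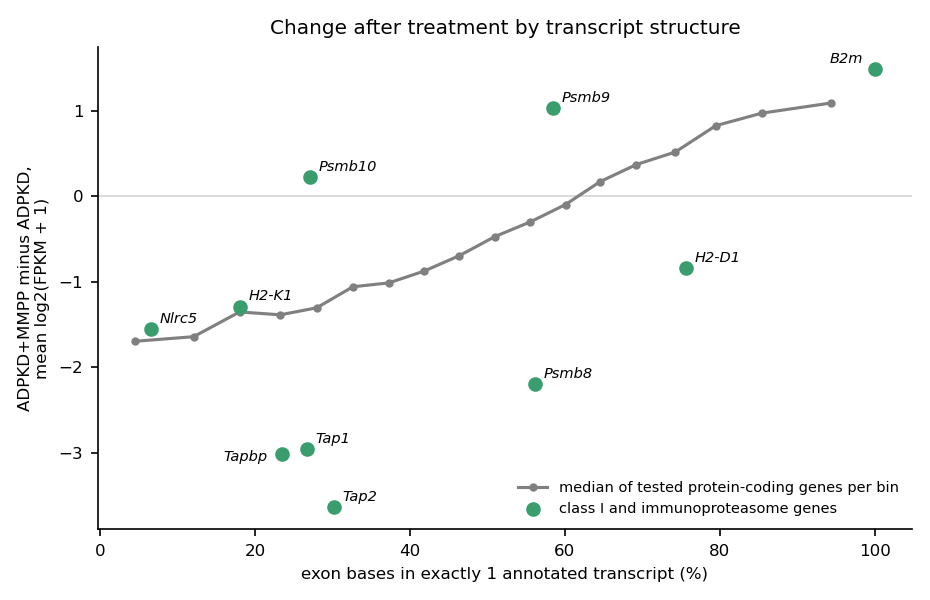
Log2 change in ADPKD+MMPP against ADPKD (difference of mean log2(FPKM + 1)) against the percentage of exon bases in exactly 1 annotated transcript, with the 10 genes as large points and the median of the tested protein-coding genes in each of 18 bins as a line. *Nlrc5*, *H2-K1* and *B2m* lie near the line, *Tap1*, *Tap2*, *Tapbp*, *Psmb8* and *H2-D1* lie below it, and *Psmb9* and *Psmb10* lie above it.

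Each library was therefore also centred on the median of its genes within 18 bins of this share, and the 10 genes then separated into 3 sets. *Tap2* (-2.58), *Psmb8* (-1.88), *Tapbp* (-1.65), *Tap1* (-1.60) and *H2-D1* (-1.41) were still called lower in ADPKD+MMPP against ADPKD, with adjusted p from 0.000166 to 0.00251. *Psmb10* (1.58, adjusted p = 0.000827) and *Psmb9* (1.16, adjusted p = 0.0165) were called higher. *H2-K1* (0.13, adjusted p = 0.612), *B2m* (0.36, adjusted p = 0.245) and *Nlrc5* (0.19, adjusted p = 0.332) were not called. The sign of *H2-K1* and *Nlrc5* turned. *Nlrc5* stood at 2.68 and 2.08 FPKM in ADPKD, and with 1 added even an absence of reads could not have been called lower. Its centred value therefore cannot decide whether it fell. On this scale 57.0% of the protein-coding genes were called. The calls of *Tap1*, *Tap2*, *Tapbp*, *Psmb8* and *H2-D1* as lower and of *Psmb9* as higher were thus made both on deposited FPKM and after centring, and those of *H2-K1*, *B2m* and *Nlrc5* were not. *B2m* was also not called with quantile normalization (0.50). *Psmb10* was called only after centring.

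**Figure D3:**
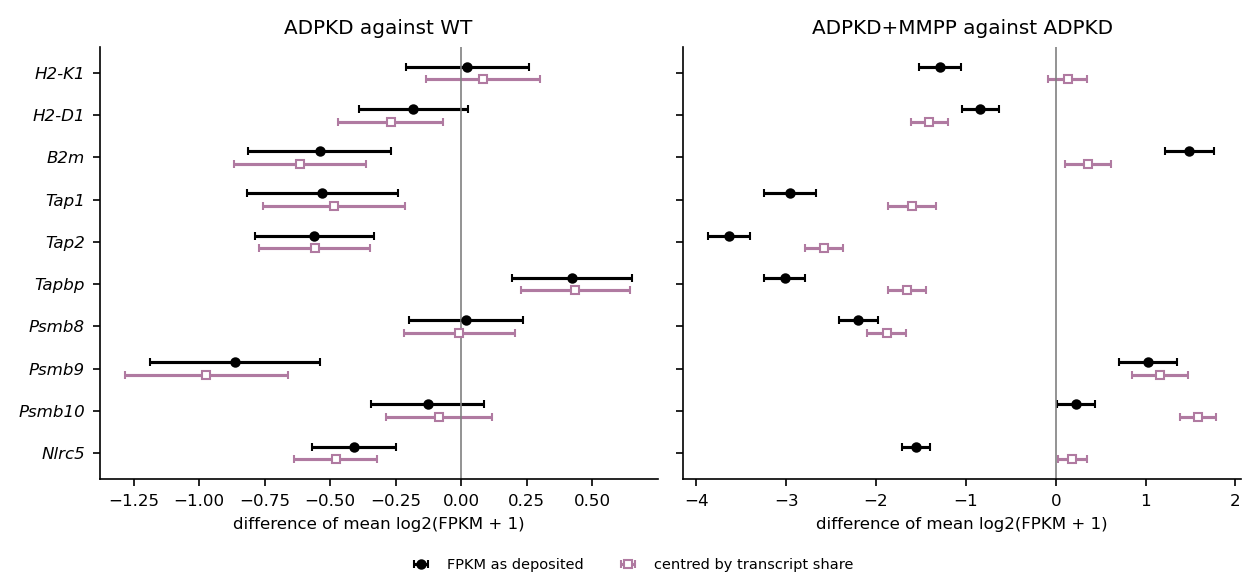
Log2 change of each gene (difference of mean log2(FPKM + 1), bars are SE) in ADPKD against WT at left and in ADPKD+MMPP against ADPKD at right, from deposited FPKM (filled) and after centring by transcript share (open). The filled and open points lie close together at left, and at right those of *H2-K1* and *Nlrc5* move from below 0 to above 0.

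The balance of inducible and constitutive catalytic subunits was read from FPKM ratios within a library. The ratio of *Psmb8* to *Psmb5* was 0.242 and 0.197 in WT, 0.210 and 0.118 in ADPKD, and 0.00519 and 0.00686 in ADPKD+MMPP, which was 26.4-fold lower than in ADPKD. The ratio of *Psmb9* to *Psmb6* was 0.102 and 0.0916 in WT, 0.0609 and 0.0204 in ADPKD, and 0.0351 and 0.0413 in ADPKD+MMPP. The ADPKD libraries lay below the WT libraries for *Psmb9* to *Psmb6*, by 2.75-fold on average, and overlapped with the ADPKD+MMPP libraries. The ratio of *Psmb10* to *Psmb7* was 1.14 and 1.11 in WT, 1.11 and 0.724 in ADPKD, and 3.41 and 3.14 in ADPKD+MMPP, which was 3.65-fold higher than in ADPKD. After centring by transcript share, the log2 difference of ADPKD+MMPP against ADPKD was -4.61 for *Psmb8* to *Psmb5*, -1.04 for *Psmb9* to *Psmb6* and 4.07 for *Psmb10* to *Psmb7*, against -4.72, 0.11 and 1.87 in the ratios of deposited FPKM. The centred values had 1 added to each FPKM and the others had nothing added, so they do not differ by centring alone. With 1 added and no centring, *Psmb9* rose by 1.02 and *Psmb6* by 1.31, so the sign for this pair had already turned. With 2 libraries against 2, an exact permutation test (two-sided) cannot go below p = 0.333, which was the value wherever the groups did not overlap.

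The constitutive subunits moved as well. *Psmb5* rose by 1.67 (adjusted p = 0.000127) and *Psmb6* rose by 1.31 (adjusted p = 0.000176), while *Psmb7* fell by 1.48 (adjusted p = 0.000106) in ADPKD+MMPP against ADPKD. Their shares of exon bases in exactly 1 transcript were 30.8%, 41.8% and 82.8%, so each moved against the median of its bin, and after centring the changes were 2.73, 2.19 and -2.49. None of the 3 was called in ADPKD against WT. For all tested genes the shares called were 26.7% there and 70.9% in ADPKD+MMPP against ADPKD. Of *Psme1*, *Psme2* and *Pomp*, the activator cap and the assembly chaperone, *Psme1* fell by 2.08 (adjusted p = 0.000118) and *Pomp* rose by 1.33 (adjusted p = 0.000164) in ADPKD+MMPP against ADPKD.

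**Figure D4:**
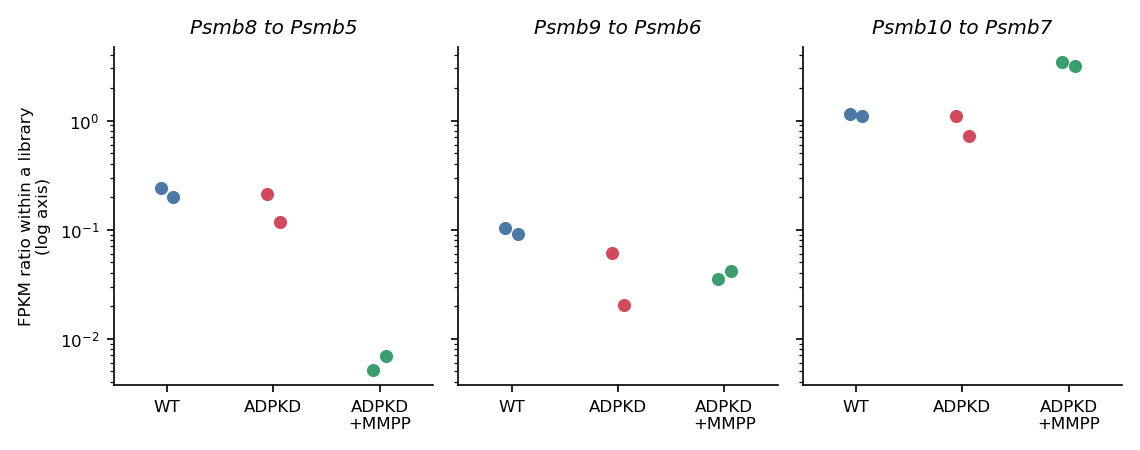
FPKM ratio of each inducible subunit to its constitutive counterpart within each library (log axis, 1 point per library, the same axis in all panels). *Psmb8* to *Psmb5* is lowest in both ADPKD+MMPP libraries, *Psmb10* to *Psmb7* is highest there, and *Psmb9* to *Psmb6* is highest in WT.

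Further factors that load class I molecules in the endoplasmic reticulum moved in both directions on deposited FPKM. Of *Calr*, *Canx*, *Pdia3*, *Erap1* and *Tapbpl*, none was called in ADPKD against WT, and the second comparison called 4 higher and 1 lower. After centring, the second comparison called 3 higher and none lower. As background, 26.7% of all tested genes were called in the first comparison and 70.9% in the second, and 57.0% of protein-coding genes in the second after centring. *Pdia3*, a disulfide isomerase of the loading complex, rose by 1.37 (adjusted p = 0.000295), from 187 and 154 FPKM to 445 and 438 FPKM. *Calr*, which encodes the chaperone calreticulin, rose by 0.64 (adjusted p = 0.0328). *Canx*, which encodes calnexin, fell by 1.89 (adjusted p = 8.34e-05), and its change after centring was -0.47 and was not called.

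Class Ib heavy chains, the less polymorphic relatives of *H2-K1* and *H2-D1*, were called lower or not called in ADPKD. Of 17 listed genes, 12 were tested, and 4 were called lower and none higher in ADPKD against WT, with a median log2 change of -0.39. Among all tested genes 12.5% were called lower, and the median change was 0.03. *H2-Q6* stood at 460 and 555 FPKM in WT, 261 and 92.5 FPKM in ADPKD, and 87.3 and 91.1 FPKM in ADPKD+MMPP, and fell by 1.69 in ADPKD against WT (adjusted p = 0.0451). *H2-Q7* fell by 1.72 (adjusted p = 0.0391), from 76.1 and 98.2 FPKM in WT to 42.1 and 15.3 FPKM in ADPKD. The other called genes, named after their values were seen, were *H2-T23* (-0.62) and *H2-T24* (-1.59). The second comparison called 2 of the 12 genes higher and 4 lower, and *H2-Q4* fell by 2.36 (adjusted p = 0.000318), from 171 and 108 FPKM to 24.1 and 27.7 FPKM. In that comparison 27.9% of all tested genes were called higher and 43% lower. The H2-Q genes are closely related, and the division of reads among them is uncertain.

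Genes that act upstream in interferon signalling were mostly lower in ADPKD+MMPP. Of 14 genes, 1 was called higher and 4 lower in ADPKD against WT, and the second comparison called none higher and 13 lower. After centring, 7 of the 13 were called lower and none higher, and the median moved from -1.32 to -0.61. Of all tested genes, 12.5% were called lower in the first comparison and 43% in the second. With centring, 57.0% of protein-coding genes were called in the second comparison, in either direction. *Irf1*, a transcription factor that binds class I and immunoproteasome promoters, stood at 151 and 134 FPKM in WT, 85.9 and 53.0 FPKM in ADPKD, and 1.64 and 1.59 FPKM in ADPKD+MMPP. *Irf1* fell by 1.06 in ADPKD against WT (adjusted p = 0.0252) and fell by 4.71 in ADPKD+MMPP against ADPKD (adjusted p = 3.71e-05), with -3.83 after centring. *Ifngr2*, a subunit of the interferon-γ receptor, rose by 1.49 in ADPKD against WT (adjusted p = 0.00351), from 8.66 and 7.80 FPKM to 23.1 and 26.6 FPKM. *Jak1*, the kinase of both interferon receptors, was the gene not called after MMPP, at 60.6 and 62.4 FPKM in ADPKD and 74.8 and 75.8 FPKM in ADPKD+MMPP.

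The factors that bind class I promoters together with NLRC5 were not called in ADPKD against WT on deposited FPKM, and *Creb1* was called lower after centring (-0.68). Of these 8 genes, the second comparison called 2 higher and 3 lower, with a median log2 change of -0.42, and after centring 3 were called higher and 1 lower, with a median of 0.14. That comparison called 70.9% of all tested genes, and 57.0% of the protein-coding genes after centring. *Rfx5*, a subunit of the X box factor, fell by 2.14 (adjusted p = 4.61e-05), with a change after centring of -0.40 that was not called. *Creb1*, which encodes a factor that binds cAMP response elements, stood at 3.53 and 3.58 FPKM in WT, 1.99 and 2.14 FPKM in ADPKD, and 2.60 and 2.57 FPKM in ADPKD+MMPP, and differed by -0.57 in ADPKD against WT (adjusted p = 0.0168), under the fold threshold.

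Genes induced by interferon did not move as a block. Of 12 interferon-stimulated genes, none was called higher and 1 lower in ADPKD against WT, and the second comparison called 2 higher and 5 lower. The shares called over all tested genes were 26.7% in the first comparison and 70.9% in the second. *Iigp1*, a GTPase of defence against intracellular pathogens, fell by 2.26 in ADPKD against WT (adjusted p = 0.0374). *Rsad2*, which encodes the antiviral enzyme viperin, fell by 4.60 in ADPKD+MMPP against ADPKD (adjusted p = 0.000340), from 122 and 42.9 FPKM to 1.92 and 2.16 FPKM. *Isg15*, a ubiquitin-like modifier, stood at 64.9 and 63.0 FPKM in WT, 141 and 64.3 FPKM in ADPKD, and 98.8 and 89.7 FPKM in ADPKD+MMPP.

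MHC class II genes, which mark professional antigen presenting cells, were read in the same fit. Of 7 genes, 2 were called higher and none lower in ADPKD against WT, with a median log2 change of 1.13, and the second comparison called 2 higher and 3 lower. For comparison, 14.2% of all tested genes were called higher in the first comparison, and 70.9% were called in the second. *Cd74*, the invariant chain, stood at 176 and 121 FPKM in WT, 656 and 207 FPKM in ADPKD, and 187 and 175 FPKM in ADPKD+MMPP. *H2-Aa*, a class II alpha chain, was called at 1.33 (adjusted p = 0.105) in the first comparison, and *H2-Ab1* fell by 1.94 in ADPKD+MMPP against ADPKD (adjusted p = 0.0188).

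**Figure D5:**
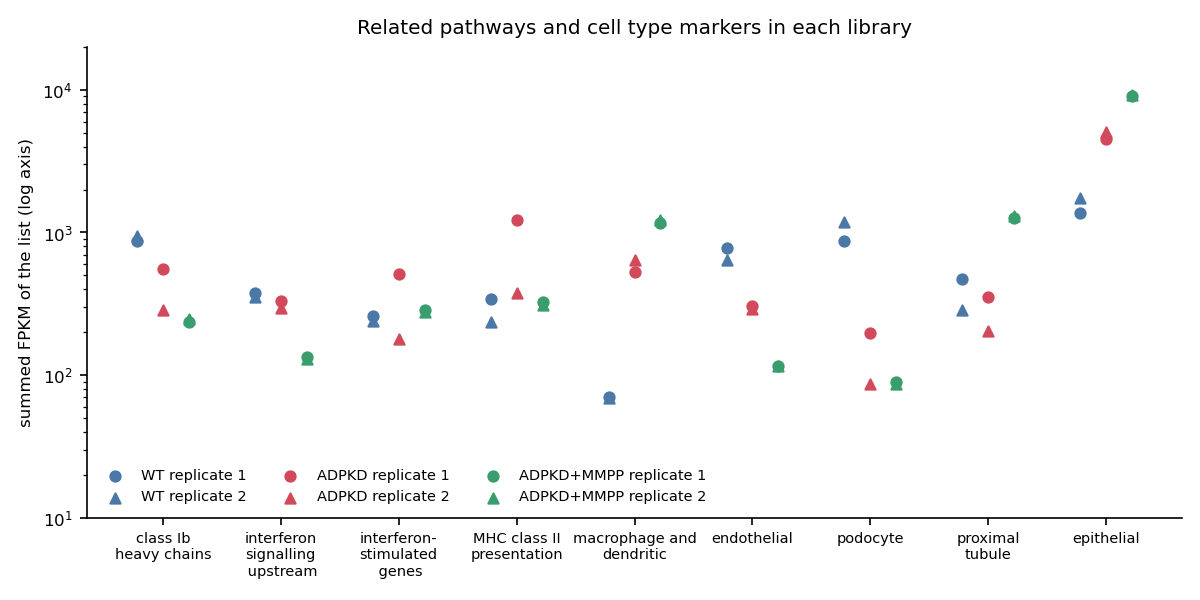
Summed FPKM (log axis) of related gene lists and cell type markers in each library, with a circle for replicate 1 and a triangle for replicate 2 of each group. Endothelial and podocyte sums are lower in ADPKD than in WT, macrophage sums are higher, and the ADPKD replicates lie far apart for interferon-stimulated and class II genes.

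Cell type markers also differed between ADPKD+MMPP and ADPKD, and their part in the class I values was not tested. As background, 27.9% of all tested genes were called higher and 43% lower, and 57.0% of protein-coding genes were called after centring. The endothelial markers summed to 116 and 116 FPKM in ADPKD+MMPP, with 5 of 7 called lower and 7 of 7 after centring. The macrophage and dendritic markers summed to 1167 and 1221 FPKM, with 5 of 10 called higher and 5 lower, and 1 higher and 2 lower after centring. The podocyte markers summed to 89.5 and 86.9 FPKM, with 2 of 4 called lower and 4 of 4 after centring. The intercalated cell markers summed to 148 and 152 FPKM, with 5 of 5 called higher on both scales. Of the 5 epithelial markers 3 were called higher and 1 lower, and 1 higher and 1 lower after centring. Of the 10 collecting duct markers tested 6 were called higher and 2 lower, and none higher and 1 lower after centring. The proximal tubule markers summed to 351 and 202 FPKM in ADPKD and 1264 and 1303 FPKM in ADPKD+MMPP, with 7 of 10 called higher and 1 lower, and 8 higher and 1 lower after centring. *Pecam1*, an adhesion gene of endothelium, stood at 146 and 126 FPKM in WT, 67.5 and 67.9 FPKM in ADPKD, and 3.64 and 4.41 FPKM in ADPKD+MMPP. *Ptprc* stood at 0.314 and 0.501 FPKM and *Cd3e* at 0.228 and 0.270 FPKM in ADPKD+MMPP.

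The third comparison set treated ADPKD mice against WT mice. It shares its libraries with the other comparisons. Of the 10 genes, 1 was called higher and 7 lower, against 73.9% of all tested genes called, with 30.1% higher and 43.8% lower, or 4477 and 6507 genes, which were 5482 and 4885 with quantile normalization. The lower genes were *Tap2* (-4.20), *Tap1* (-3.49), *Tapbp* (-2.59), *Psmb8* (-2.18), *Nlrc5* (-1.96), *H2-K1* (-1.27) and *H2-D1* (-1.02), and the higher gene was *B2m* (0.95, adjusted p = 0.0195). The call of *B2m* was lost without WT replicate 2, with a change of 0.82, and without either ADPKD+MMPP library. *Psmb9* (0.16) and *Psmb10* (0.10) were not called. After centring, *Tap2* (-3.14), *Tap1* (-2.09), *Psmb8* (-1.89), *H2-D1* (-1.67) and *Tapbp* (-1.22) were called lower and *Psmb10* (1.5) higher, while *H2-K1* (0.22), *B2m* (-0.25) and *Nlrc5* (-0.29) were not called and the signs of *H2-K1* and *B2m* turned. For *Nlrc5* the 1 added to each value again left no room for a lower call. Of the protein-coding genes 62.0% were called after centring, so the share among the 10 genes was not above the background.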

How the data were processed

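PolyA RNA of DBA-positive mouse kidney cells was sequenced in 6 libraries, 2 per group, and groups were taken from the sample titles. The authors aligned reads to GRCm38/mm10 with HISAT2 (2.1.0), counted them on genes with featureCounts (1.6.0) and deposited FPKM for each library; the submitters' processing notes give the versions. The annotation release and the tool that made FPKM are not given in the sources used here. Of the 55367 symbols, 53186 matched a gene of GENCODE vM21, whose exon lengths turned FPKM below 50 reads into whole reads (within 0.01 read for 98.0% to 98.8% of values) and gave the depth.

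Genes that reached an FPKM of 1 in 2 or more libraries entered limma (3.58.1, R 4.3.3) as log2(FPKM + 1), in one fit over 6 libraries with 3 group means. DESeq2, which the authors used, needs counts and was not run. Calls needed a fold change of 1.5 and an unadjusted P under 0.05, the thresholds of the study, and adjusted p-values are Benjamini-Hochberg over all 14862 genes tested. The bins by transcript share were 20, of which 18 remained after ties. The steps were tested on simulated data. The members, lists, motifs and tests were chosen with earlier results of these data known. All 10 members are named. Of each related list, the genes named are those 2 with the highest mean FPKM and that with the largest change in the first and the second comparison, shown where values add to the text. Further genes were defining cell markers. The alternatives covered pseudocount, filter, scaling, fit, thresholds, a replicate block, centring by transcript share and leaving out each library, where a lone library is assumed to vary like the other groups.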

Additional observations from a re-analysis of the deposited data

How the results depend on the processing

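Over 534 alternative values of the log2 changes of the 10 genes, 480 kept direction and side of the threshold. The filters, the prior, the thresholds and the replicate block cannot move a log2 change. Leaving out libraries of the group not compared cannot move it either. The count of 480 is therefore no measure of stability. The number of genes called in ADPKD against WT, 1 with the settings of the report, was 0 with a pseudocount of 0.1, no filter, a filter at 5 FPKM, only the groups compared, adjusted p or a fold change of 2, was 2 with a common FPKM sum, quantile normalization or median-of-ratios scaling, and ranged from 0 to 4 when 1 library was left out. All genes called there went from 3970 to 2583 with the filter at 5 FPKM and to 1951 at a fold change of 2, and with 1 library left out from 3533 to 4870. In ADPKD against WT, *H2-K1* turned to -0.064 with a common sum and -0.040 with median of ratios, and *Psmb8* to -0.060, -0.037 and, centred by transcript share, -0.0071. Leaving out 1 library gave -0.31 to 0.35 for *H2-K1*, -0.46 to 0.093 for *H2-D1*, -0.28 to 0.32 for *Psmb8* and -0.44 to 0.18 for *Psmb10* in that comparison, and -0.085 to 0.54 for *Psmb10* in ADPKD+MMPP against ADPKD. Centring turned *H2-K1* to 0.13 and *Nlrc5* to 0.19 in ADPKD+MMPP against ADPKD, and *H2-K1* to 0.22 and *B2m* to -0.25 against WT. A common sum gave -0.067 for *Psmb10* against ADPKD and -0.16 for *Psmb9* and -0.28 for *Psmb10* against WT, and quantile normalization gave -0.21 for *B2m* against WT and 0.50 against ADPKD, the latter no longer called. A pseudocount of 1 gave log2 ratios of -3.87 and -4.33 for *Psmb8* to *Psmb5* in ADPKD+MMPP against ADPKD and WT, and 1.40 for *Psmb10* to *Psmb7* against WT. With centring in addition, added once the data had been seen, the values against ADPKD and WT were -1.04 and -2.17 for *Psmb9* to *Psmb6* and 4.07 and 3.88 for *Psmb10* to *Psmb7*. Centring moved the median of class Ib genes to -0.50 in ADPKD against WT and -0.10 in ADPKD+MMPP against ADPKD, and in the latter the constitutive subunits to 2.19, the cap genes to 0.32, the upstream interferon genes to -0.61 and the promoter factors to 0.14. Where no value shows it, the cause was not tested. Deviations of same-numbered libraries correlated at 0.13, -0.0080 and 0.014 between groups. With 2 libraries per group, such values cannot exclude that the numbers pair the libraries. With a replicate block, 1, 9 and 8 of the 10 genes were called in the 3 comparisons and 4055, 10595 and 11038 of all genes. Depth limits *Tap2* and *Nlrc5* most, with 12 to 16 reads in the ADPKD+MMPP libraries.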

Other observations

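Genes whose pattern over the 6 libraries was most like that of 4 members were sought among 9431 tested genes with a mean of at least 5 FPKM in at least 1 group. Likeness was the root mean square difference of log2(FPKM + 1) after each gene's mean was subtracted, and a smaller value means a closer pattern. The closest genes to *H2-K1* were *Exoc6* (0.101) and *Pdzd11* (0.113). The closest genes to *Tap1* were *Tmco1* (0.0845) and *Parp10* (0.135), and *Tmco1* had means of 17.0, 12.3 and 0.480 FPKM in WT, ADPKD and ADPKD+MMPP. The closest genes to *Psmb8* were *Aldh16a1* (0.0693) and *Papss1* (0.0796). The closest genes to *Nlrc5* were *Polrmt* (0.0464) and *Hdac10* (0.0755). The points share libraries and depth, and the likeness is a description with no test.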
